A study of Mus musculus with 2 samples.

Results

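The weakest CTCF sites that both of the authors' reproducibility sets held were 594 intervals of 39454 on autosomes 1 to 19 (mm10 build). The authors passed their peaks through the irreproducible discovery rate (IDR) procedure, which keeps peaks whose ranking repeats, and deposited a conservative set of 43393 rows and an optimal set of 44306 rows. A row with the same chromosome, start, end and summit in both sets is called a shared row here. The 594 weak sites were chosen by a pooled signal under 20, the peak caller's value for both replicates together, on a scale the sources used here do not state. The pooled signal, and the width, q value, score, rank and replicate signals that come from the same calls, are therefore descriptions with no test. The remaining 38860 shared rows had a pooled signal of 20.01 or more.

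The cells were E14TG2a.4, a male embryonic stem cell line from mouse strain 129/Ola, given the developmental stage embryonic and an age of 3.5 day. Chromatin bound by CTCF was precipitated with an antibody to CTCF, sequenced, and called against a control. The series has a single group of 2 biological replicates from this line, with no treatment and no second condition. Both replicates come from the same line, so they share its genome, and peak lists carry no expression by which the labelled cell type could be checked. The deposited lists give no read counts, so depth is unknown, and intervals below are exact Clopper-Pearson intervals at 95% that cover counting error only.

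CTCF is a zinc-finger protein that binds a long, well-defined DNA motif, and its name comes from the CCCTC core first seen in its target sequence. Together with the cohesin ring it holds the bases of chromatin loops and forms insulators that separate genes from enhancers of neighbouring domains. In embryonic stem cells it occupies sites throughout the genome, and a ChIP-seq peak caller ranks them from strong to weak by the pile of fragments over each summit.

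The DNA under a weak summit could be read where the summit fell within the RefSeq promoter table (GRCm38.p6, the coordinates of mm10), whose windows run from 250 bases before a gene start to 50 after it. Only 5 windows held a weak summit. They are shown because they are the weak sites whose sequence was at hand, and each line gives the bases before the gene start that lie within 40 bases of the summit. The Smpdl3b summit lies 11 bp past the start, so that line gives bases to one side of it and not the summit itself. Capitals mark the CTCF core pattern, which begins with CC, ends with GGC and has AG between them at fixed spacing, or the short CCCTC core, each searched on both strands. A capital stretch may therefore read as the reverse complement, and neighbouring cores may overlap.

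Def8 (chr8:123443181-123443258, plus strand): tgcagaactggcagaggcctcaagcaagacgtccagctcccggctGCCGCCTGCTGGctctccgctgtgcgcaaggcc

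Inhbe (chr10:127351849-127351891, minus strand): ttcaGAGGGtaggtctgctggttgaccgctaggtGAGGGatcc

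AA388235 (chr17:33981435-33981491, plus strand): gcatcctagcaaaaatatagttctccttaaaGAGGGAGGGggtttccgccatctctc

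Fam110a (chr2:151974050-151974130, minus strand): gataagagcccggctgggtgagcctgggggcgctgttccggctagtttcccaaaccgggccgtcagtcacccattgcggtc

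Smpdl3b (chr4:132757172-132757200, minus strand): aagcaagagcagccatccgccaaggataa

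For comparison, the next lines show strong shared rows at the promoters of Irak3, a kinase-like regulator of innate immune signalling, and Med4, a subunit of the Mediator complex. Their pooled signals were 221.9 and 218.8. They were selected as the strongest whose shown stretch holds the CTCF core pattern, after the strongest rows overall were seen to lack it there, so they illustrate the pattern and measure nothing.

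Irak3 (chr10:120202293-120202373, minus strand): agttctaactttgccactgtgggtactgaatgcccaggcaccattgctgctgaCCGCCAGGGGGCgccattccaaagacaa

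Med4 (chr14:73509878-73509958, plus strand): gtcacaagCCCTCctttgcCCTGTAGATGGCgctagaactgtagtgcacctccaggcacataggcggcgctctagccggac

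Of the 5 windows with a weak summit, only that of Def8 held the CTCF core pattern, with its centre 11 bp from the weak summit. The pattern stood in 8.73% of all 31396 promoter windows (8.42 to 9.05) and in 45.6% of the 816 windows that held another shared summit (42.1 to 49.1). Within 50 bp of the summit, where the whole of that stretch lay in the window, it was found at 1 of 4 weak sites, whose interval runs from 0.631 to 80.6%. The same share was 25.2% of 155 rows with a pooled signal of 20 to 50, 31.3% of 224 rows of 50 to 100, and 50.4% of 256 rows of 100 or more. The short core CCCTC stood in all 5 weak windows (47.8 to 100%). It stood in 66.3% of all windows and in 76.7% of those that held another shared summit. Within 50 bp of the summit it was found at 2 of 4 weak sites. In the classes of 20 to 50, 50 to 100, and 100 or more it was found at 52.9%, 42.0% and 45.7%. Sequence outside promoter windows was not analysed here, and with 5 windows the share among weak sites is not resolved.

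Pooled signal of the weak sites ran from 7.63 to 19.99 with a median of 17.4, against a median of 85.4 among the other shared rows. In the pooled list of 300000 entries, which holds peaks together with background and starts at 7.60, the weak sites took ranks from 44519 to 297030. The lowest of them thus stood close to the end of the list, whose median signal was 9.57. Their −log10 q value ran from 0.111 to 3.04. Among the other shared rows the lower quartile, median and maximum were all 4.85, so most of them stood at a ceiling. The median was 0.440 among weak sites that overlapped another shared row and 2.68 among those that did not. All 594 weak sites were 316 bp wide, as were 93.1% of all pooled entries and 47.6% of the other shared rows.

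Rows on either side of the threshold had near-equal signals. The 5 rows just under 20 lay inside Kcnj9, a potassium channel subunit gene, inside Trim33, a ubiquitin ligase gene, and between genes nearest to Tubg2 (gamma-tubulin), Psat1 (serine synthesis) and En1 (a homeobox gene of the midbrain), at 19.97 to 19.99. The 5 just over it lay between genes nearest to Shisal1, Tacr3 (a neurokinin receptor), Olfm4, Kcnk16 (a potassium channel) and Sf3b1 (a splicing factor), at 20.01 to 20.04.

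**Figure D1:**
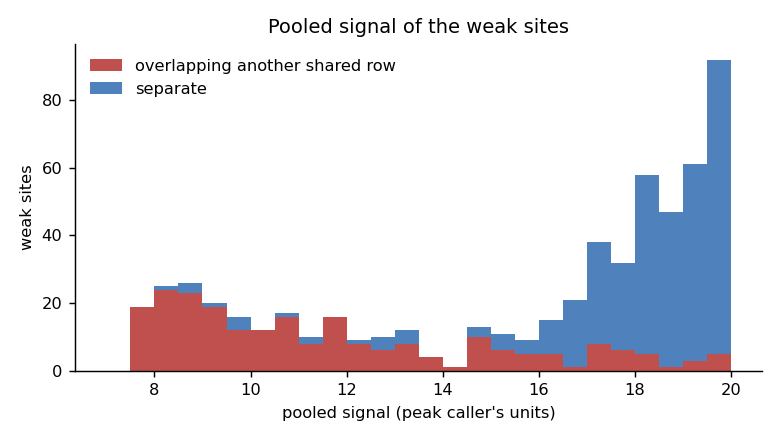
Histogram of the pooled signal (x axis, peak caller's units) of the 594 weak sites (y axis, number of sites), stacked by whether the interval overlaps another shared row (231) or is separate (363). The overlapping sites lie mostly at the low end, with a median of 10.6, and the separate sites near the threshold, with a median of 18.6.

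The weak sites were of 2 kinds by position. Of the 594, 231 overlapped the interval of another shared row (38.9%, 34.9 to 42.9), whereas 316 of the 38860 other shared rows did (0.813%, 0.726 to 0.908). The share was higher among weak sites in 19 of 19 autosomes. Weak sites near the threshold did not stand apart from rows just over it. The share was 5.43% from 18 to 20, 5.99% from 20 to 22 and 3.21% from 22 to 25. The split of weak sites by overlap was noticed after the data were seen. The 231 are called overlapping and the remaining 363 separate. When the same number of rows was chosen as the weakest in replicate 2 alone or in replicate 1 alone, among rows with a summit match in both replicates, 1.68% and 2.36% overlapped another shared row. As 9 of the 231 overlapping sites have such a match, that choice leaves most of them out by construction and does not bear on the overlap share.

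The kinds divided along the signal that chose the sites. Of the 210 weak sites under 15, 186 overlapped another shared row, as did 31 of the 126 sites from 15 to 18 and 14 of the 258 sites from 18 to 20. The median pooled signal was 10.6 for overlapping sites and 18.6 for separate sites. Only 9 separate sites were under 10 and 15 from 10 to 15. The lowest of these, at 8.42 inside Mtus2, still had a shared row of signal 104.2 with its summit 202 bp away, which was narrow enough not to touch it. Inside Mga, a transcription factor gene, a separate site of 8.55 had its nearest shared row at 17559 bp.

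Whether a pooled entry of low signal was a shared row at all went with the presence of a strong neighbour. Of pooled-list entries under 20 that overlapped a shared row of 20 or more, 186 of 679 were shared rows (27.4%, 24.1 to 30.9), against 408 of 252503 that did not (0.162%, 0.146 to 0.178). Among all pooled entries, 0.0632% of those under 10 were shared rows, 0.136% of those from 10 to 15, 1.86% from 15 to 18 and 11.0% from 18 to 20. Above the threshold the share rose from 20.2% at 20 to 22 and 60.5% at 25 to 30 to 98.2% at 40 to 60.

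**Figure D2:**
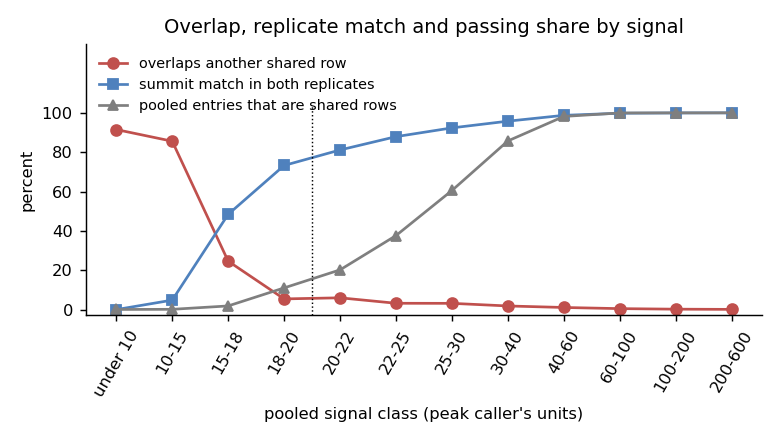
Percent (y axis) by class of pooled signal (x axis, peak caller's units): shared rows that overlap another shared row, shared rows with a summit match in both replicates, and pooled-list entries that are shared rows. The dotted line marks the threshold of 20. Overlap falls from 91.5% under 10 to 5.43% at 18 to 20, while replicate matches rise from 0% to 73.3%.

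Overlapping sites sat at a nearly fixed distance from their neighbour. The summit of the neighbour was 199 to 283 bp away with a median of 203 bp, and in 176 of the 231 it was within 210 bp. The smallest spacing of summits anywhere in the pooled list was also 199 bp, and 1.35% of its 296527 neighbouring summits were closer than 316 bp. Overlap in turn limits how far apart summits can be, so the range is bounded at both ends. The spacing among the other overlapping shared rows was not compared. The neighbour was stronger in 208 cases and weaker in 23. In 186 cases the neighbour had 20 or more, so it was stronger by the choice of the weak sites. It was itself a weak site in 45 cases. Its median pooled signal was 31.2 (quartiles 22.1 and 48.6), and 20 neighbours exceeded the median of all shared rows, 84.2. The median ratio of neighbour to weak site was 2.94, a value that the threshold also shapes.

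Beside a row of 20 or more, the weak member of a pair also lay on a fixed side. All 186 weak sites beside such a row had the higher coordinate. Among pooled entries under 20 that overlapped such a row and did not become shared rows, 491 of 493 did. Over all 231 overlapping sites, the neighbour had the lower coordinate in 209 and the higher in 22. The score of the conservative set was the same for site and neighbour in 182 of the 231 (78.8%), including 74 of the 123 sites whose score was under the ceiling of 1000. A score of 1000 was held by 46.8% of overlapping sites, by 3.03% of separate sites and by 91.9% of the other shared rows. The part that the peak caller and the IDR matching had in these spacings, sides and scores was not tested.

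The lowest 10 weak sites were all of this kind. The lowest lay inside Elfn1, which encodes a synaptic adhesion protein (chr5:139926031-139926346), with a pooled signal of 7.63 beside a row of 61.2 whose summit was 199 bp away. The summits nearest to it were 166 bp away in replicate 1, at a signal of 29.7, and 206 bp away in replicate 2, at 37.4. Neither replicate thus had a summit within 100 bp. Elfn1 held a second weak site among its 8 shared rows.

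A site inside Hk3, a hexokinase gene, had 7.70 beside 21.1, and a site inside Htr5a, a serotonin receptor gene, 7.73 beside 17.4. Both neighbours were modest. Inside Fto, which encodes an RNA demethylase, the pair was 7.76 and 87.8, and at the promoter of Gng8, a G-protein subunit gene, 7.80 and 112.1. The remaining 5 lay inside Hdc (histidine decarboxylase, which makes histamine) and Ptprt (a receptor phosphatase) or between genes nearest to Shank2 (a synaptic scaffold), Rsph3b (a ciliary radial spoke protein) and Faf2 (a protein of degradation at the endoplasmic reticulum). Their pooled signals were 7.71 to 7.80 and those of their neighbours 29.9 to 53.3.

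Among the overlapping weak sites, the strongest neighbour lay near Elf2, an ETS-family transcription factor gene. The weak site had 8.43 (chr3:51353638-51353953), and its neighbour at 200 bp had 232.0. The nearest replicate summits were 196 and 198 bp away with signals of 137.6 and 93.8, and so stood at about the neighbour's distance.

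**Figure D3:**
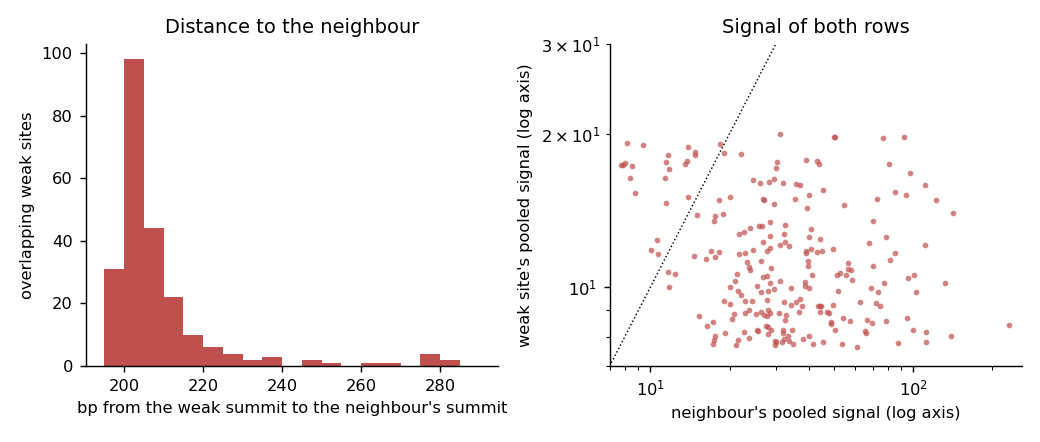
Left, distance in bp from the summit of each of the 231 overlapping weak sites to the summit of its neighbour (y axis, number of sites), which runs from 199 to 283 bp with a median of 203 bp. Right, pooled signal of the weak site against that of its neighbour (log axes, peak caller's units). The dotted line marks equal signal. Of the 231 neighbours, 208 are the stronger row. Among the 231, 186 have a signal of 20 or more, so they are stronger by the choice of the weak sites.

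Presence in both IDR sets did not mean that each replicate had a summit at the site. A summit within 100 bp was found in both replicate lists for 255 of the 594 weak sites (42.9%, 38.9 to 47.0) and for 98.6% of the other shared rows (98.5 to 98.7). The share rose gradually across the threshold, from 73.3% at 18 to 20 to 81.1% at 20 to 22 and 87.9% at 22 to 25. The kinds differed: 246 of the 363 separate sites were matched in both (67.8%, 62.7 to 72.6) but only 9 of the 231 overlapping sites (3.90%, 1.80 to 7.27). Replicate 1 had a match at 62.3% of weak sites and replicate 2 at 62.6%. Matched in neither were 98 overlapping and 9 separate sites.

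Within 316 bp, one entry width, both replicates had some summit at 587 of the 594. For overlapping sites, the nearest replicate summit lay nearer to the neighbour than to the weak site in 163 cases in replicate 1 and 153 in replicate 2. In 95 it did so in both replicates, in 126 in a single replicate, and in 10 in neither. At Stk3, which encodes a kinase of the Hippo pathway, both members of a pair were weak sites, at 17.6 (chr15:35071669-35071984) and 11.5 (chr15:35071884-35072199). The nearest replicate 1 summit, of signal 12.9, was 0 bp from the former, and the nearest replicate 2 summit, of 12.7, was 9 bp from the latter. The pair thus had the same nearest summit in each replicate, at the former member in replicate 1 and at the latter in replicate 2.

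The replicates also differed at Def8, a separate site whose promoter sequence is shown above. The weak site had a pooled signal of 16.7, with a replicate 2 summit of 13.4 at 2 bp. The nearest replicate 1 summit was 228 bp away with a signal of 38.4. A shared row of 79.6 had its summit 251 bp from the weak summit. At AA388235, a long noncoding RNA gene, the weak site of 11.6 overlapped a row of 21.8. The nearest summits there were 201 and 209 bp away in the replicates, so neither replicate had a match within 100 bp.

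Signals at the 255 matched weak sites were low in each replicate. They ran from 8.37 to 22.8 with a median of 9.76 in replicate 1, and from 7.67 to 14.9 with a median of 9.04 in replicate 2. Divided by each replicate's median over the 38563 matched shared rows (44.2 and 41.1), the weak sites had a median relative signal of 0.221 and 0.220, or 0.220 ± 0.000398 (SD, n = 2). The pooled signal that chose the sites was made from both replicates, so this level describes the choice.

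The replicates were close to each other at the matched sites. The SD of the log2 ratio of relative signals was 0.25 across the 255 sites and 0.44 across the other matched shared rows. More than 2-fold apart was 1 of the 255 (0.392%, 0.00993 to 2.17), where the background over all 38563 matched shared rows was 3.23%. A pooled signal under 20 leaves little room for a high value in either replicate, so the narrow spread is not read as closer agreement. The SD was 0.34 in the class from 20 to 22 and 0.60 from 30 to 40, and fell to 0.23 at 200 or more.

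The site more than 2-fold apart overlapped a stronger row inside Cnot8, a subunit gene of the CCR4-NOT deadenylase. Its signal was 22.8 in replicate 1, from a summit 98 bp away, and 9.61 in replicate 2, from a summit 24 bp away. The relative signals were 0.517 and 0.234. The neighbour was a row of 44.3 whose summit was 200 bp from the weak one. On which side of the weak summit the replicate 1 summit lay was not read.

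The other matched sites that leaned most to replicate 1 lay near Stt3b (an oligosaccharyltransferase subunit) and inside Atxn1, Fcrl5 and Sfmbt2, and were all separate. Near Stt3b the signals were 13.2 and 8.72, with relative signals of 0.298 and 0.212. Those that leaned most to replicate 2 lay inside Myo16 and Igsf5 and nearest to Nr5a1 (a nuclear receptor), Thap7 and Ghrl (ghrelin). Inside Myo16, an unconventional myosin gene, the signals were 8.88 and 13.1, with relative signals of 0.201 and 0.318.

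**Figure D4:**
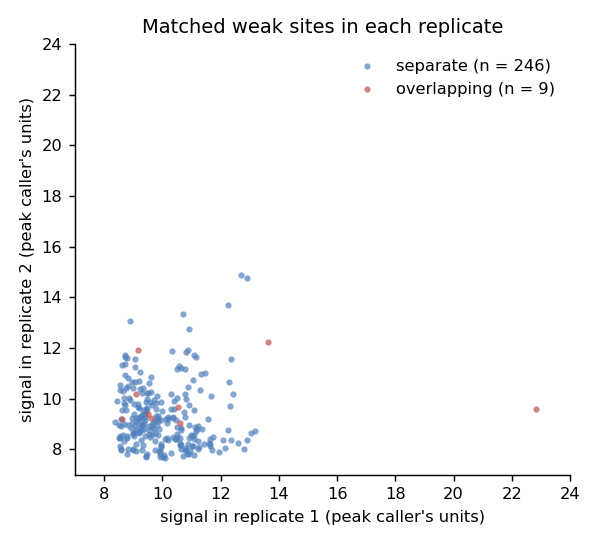
Signal in replicate 2 (y axis) against replicate 1 (x axis, both in the peak caller's units) at the 255 weak sites with a summit within 100 bp in both, 246 separate and 9 overlapping. All but the Cnot8 site, at 22.8 and 9.61, lie below 15 in both replicates.

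Choosing in a single replicate gave lists that differed from each other and from the weak sites. The lists were drawn from rows with a summit match in both replicates, so at most 255 of the 594 weak sites could be on them. Part of the difference from the weak sites is thus by construction. The 594 matched shared rows of lowest signal in replicate 1 had a median relative signal of 0.216 there and 0.298 in replicate 2, where their median stood at the 5.39th percentile. The 594 lowest in replicate 2 rose in the same way from 0.217 to 0.283 in replicate 1, at the 4.88th percentile. Only 138 rows were in both lists (23.2% of each). Of the 255 matched weak sites, 61.2% were among the lowest of replicate 1 and 65.1% among those of replicate 2, a mean of 63.1% ± 2.77 (SD, n = 2). All these rows had passed IDR and had a summit match in both replicates, so a low percentile in the other replicate is a description of rows chosen in that way.

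Gene placement was not used by the rule. Inside a coding gene lay 315 of the 594 weak sites (53.0%, 48.9 to 57.1) and 49.4% of the other shared rows (48.9 to 49.9), so the intervals meet. Among separate sites the share was 55.1% (49.8 to 60.3), higher than among the other rows in 15 of 19 autosomes, and among overlapping sites 49.8% (43.2 to 56.4). The sites were spread thinly, since 299 coding genes held the 315. The 16 genes with 2 weak sites, in which neighbouring weak pairs count as 2, included Cd83, Kdm5b (a histone demethylase gene), Tcf3 (an E-protein transcription factor gene), Uchl1 and Xdh (xanthine dehydrogenase). No gene held more.

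Distances to gene starts could be taken for 576 weak sites, since the start table used here has no gene on chromosome 18. It gives starts for 79.9% of 21900 coding genes, with gaps along some chromosomes, so distances are overstated. Whether they are overstated equally for weak and other rows was not tested. Within 1000 bp of a coding start lay 32 weak sites (5.56%, 3.83 to 7.75) and 4.11% of the other shared rows (3.91 to 4.32), and the share was higher among weak sites in 9 of 18 chromosomes. It was 6.03% for separate and 4.82% for overlapping sites. Within 1000 bp of either end of a coding gene, for which all autosomes could be used, the shares were 7.58% and 7.86%. A difference in promoter share was not detectable with these numbers.

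The median distance to the nearest coding start was 23832 bp for weak sites, 24663 bp for separate sites and 30824 bp for the other shared rows. Separate sites were nearer in 11 of 18 chromosomes, so the difference did not recur on every chromosome. At 50 kb or more from a start lay 32.6% of weak sites (28.8 to 36.6) and 37.9% of the other rows (37.4 to 38.4). Between genes of any kind lay 37.0% of weak sites (33.0 to 41.1) and 40.1% of the other rows.

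**Figure D5:**
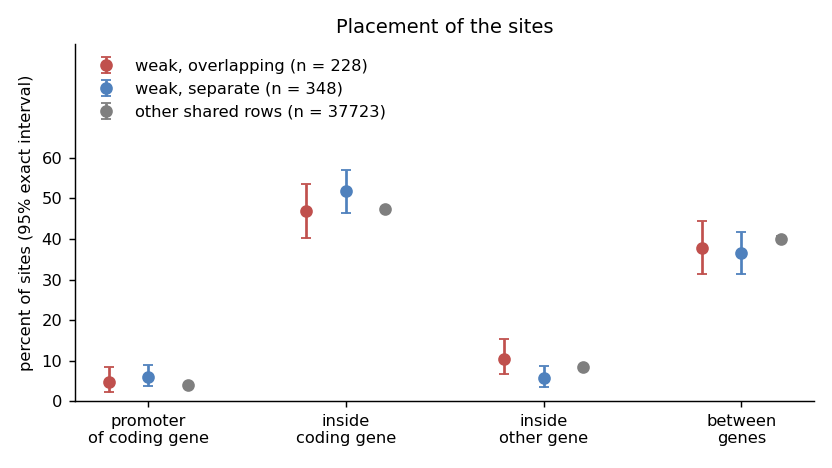
Percent of sites (y axis, with exact 95% intervals) at the promoter of a coding gene, inside a coding gene away from its start, inside another gene, and between genes, for 228 overlapping and 348 separate weak sites and 37723 other shared rows on the 18 autosomes with start positions. In all 4 classes the intervals of both weak kinds include the value of the other shared rows.

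Of the weak sites nearest to a coding start, 10 lay within 316 bp of it and none of them overlapped another shared row. The nearest, at Inhbe, an inhibin-family growth factor subunit gene, had its summit 3 bp from the start (chr10:127351693-127352008), a pooled signal of 19.6, and replicate signals of 11.0 and 8.15. At Smpdl3b, a sphingomyelinase-like gene, the pooled signal was 19.4 at 11 bp from the start. There the replicate 2 summit, of 11.8, was at the same base, and the nearest replicate 1 summit, of 10.4, was 122 bp away.

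At P4ha1, which encodes a collagen prolyl hydroxylase subunit, the pooled signal was 18.9 at 105 bp, with 9.05 and 11.3 in the replicates. At Fam110a it was 17.2 at 109 bp, with 9.09 and 9.23. The replicates were nearly equal there. Zfp780b, a zinc-finger gene, had the lowest of these, 12.8 at 191 bp. Dkk1, a secreted Wnt inhibitor gene, had 18.02 at 212 bp, and Mbd4, a DNA repair glycosylase gene that reads methylated CpG, 19.3 at 290 bp. Cfap74, a gene of cilia, and Cmtm3 completed the list at 302 and 316 bp, with 18.3 and 17.3.

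Other CTCF sites lay close to weak sites mainly through the overlapping kind. Another shared row had its summit within 10 kb of 71.4% of weak sites (67.6 to 74.99) and of 49.4% of the other rows (48.9 to 49.9). For separate sites the share was 53.2% (47.9 to 58.4), against 49.0% of the other rows that overlap none, and it was higher than among the other rows in 13 of 19 autosomes. Rows chosen as the weakest in replicate 2 alone or replicate 1 alone, among rows with a summit match in both, had 46.0% and 42.6%, below the other rows, and that choice leaves out most overlapping sites. Within 5 kb the shares of separate and of non-overlapping other rows were 32.0% and 31.4%, and within 1000 bp 9.64% (6.81 to 13.2) and 5.86% (5.62 to 6.09). The intervals of separate sites and non-overlapping other rows thus met at 5 and 10 kb and did not meet at 1000 bp, a distance looked at after the data were seen.

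By chromosome, weak sites made up from 1.21% of shared rows on chromosome 7 to 2.09% on chromosome 15, or 33 of 2720 and 35 of 1676. No autosome lacked them. Chromosome 5, with 49 of 3165 (1.55%), and chromosome 11, with 50 of 2973 (1.68%), held the most by count. Over all autosomes weak sites were 594 of 39454 shared rows.

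The nearest coding gene by its interval was compared with 15 gene families. Solute carriers, the membrane transporters, were nearest to 12 weak sites (2.02%, 1.05 to 3.50) and to 2.31% of the other rows, and Zfp zinc-finger genes to 8 (1.35%, 0.583 to 2.64) and 1.40%. Olfactory receptors were nearest to 4 weak sites (0.673% against 0.417%). Keratins (Krt12, Krt14 and Krt9, of the chromosome 11 cluster) were nearest to 3 (0.505%, 0.104 to 1.47, against 0.124%), collagens (Col7a1, Col4a4 and Col26a1) to 3, potassium channels to 3, and RING and tripartite motif genes to 3. Vomeronasal receptors, ribosomal protein genes and protocadherins were nearest to 2 each. In all 15 families the interval of the weak sites held the share of the other rows.

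No weak site had a Hox gene, a histone gene, a pluripotency factor gene or a gene of CTCF and cohesin as its nearest coding gene. Each of these allows a share of up to 0.619%, and the other rows had 0.0669, 0.0746, 0.190 and 0.0746%, which lie within that limit. Of the imprinted genes, Dlk1, which encodes a Notch-related growth regulator, was nearest to 1 weak site (chr12:109437878-109438193), 14449 bp away. Its pooled signal was 12.6 beside a row of 28.6 at 201 bp, and the nearest replicate summits were 34 bp away at 14.2 and 228 bp away at 12.6.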

How the data were processed

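CTCF ChIP-seq peak lists of 2 biological replicates of a single group were used on mm10. Per the file headers in the deposited description, replicate lists and the pooled list hold peaks and background made from filtered alignments with a control, and the authors thresholded the conservative and optimal sets by IDR. No label or header names a peak caller, an aligner, an IDR version or a threshold. The deposited signal, −log10 q value and whole-number score (up to 1000) are the authors' values per row, and the score's scale is not stated. The deposited summit offset gave each summit's position.

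Depth is unknown. Replicate summits were matched to the nearest within 100 bp, and relative signal is each signal over the median of that replicate's matched shared rows. Genes and promoter sequence came from RefSeq tables of GRCm38.p6. Gene families were counted by the nearest coding gene interval, not the nearest start as designed, because the start table is incomplete. Named are the lowest sites, those around the threshold, those nearest to a start or to a strong row, those that differ most between replicates, and members of the families. Not all of these are printed. The sites, families and comparisons were chosen with earlier results of these data known. No test was made, since sites are not replicates and there is no second group. Summit matching, the distance to a neighbour and gene lookup were tested on simulated data, and the overlap of intervals was not. Python 3.11.15, numpy 2.4.6, pandas 2.3.3 and scipy 1.17.1 were used. The mm9 lists were not used. Alternatives changed the threshold, match distance, windows, set and replicate.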

Additional observations from a re-analysis of the deposited data

How the results depend on the processing

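Of 54 alternatives for 9 results, 20 left the value within its 95% interval or replicate SD and 34 moved it. Against the other shared rows (4.11% at promoters, 7.86% near either end of a gene, 49.4% within 10 kb), the promoter share fell below at a threshold of 15, at 3.86%, and for either end, at 7.58%, and the 10 kb share fell below without either replicate. With a threshold of 15, the share with another shared row within 10 kb was 96.2%, the share matched in both replicates 2.38%, the overlap share 88.6%, the relative signal 0.214 and the SD of the log2 ratio 0.58, both over 5 sites. With a threshold of 25 these were 55.3%, 71.2%, 15.9%, 0.252 and 0.38, and the median start distance was 29213 bp. A summit match within 50 bp gave 25.1% matched, a relative signal of 0.206, an SD of 0.21 and 83.6% among the weakest of a single replicate, and within 200 bp 70.0%, 0.232, 0.35 and 49.4%. Promoter windows of 500 and 2000 bp gave 2.60% and 9.03%. Distances of 5 and 20 kb gave 58.4% and 82.3% with a neighbour. The conservative set alone gave 67.4% within 10 kb, and the optimal set alone 64.6% and a start distance of 29084 bp. The nearest start of any gene lay at 15222 bp. Separate sites alone gave 53.2% within 10 kb and 67.8% matched, an alternative chosen after seeing the data.

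Without replicate 1 or 2, the same number of rows weakest in the remaining replicate had a promoter share of 4.23 to 5.90%, a start distance of 28335 to 29087 bp, a neighbour within 10 kb at 42.6 to 46.0%, and an overlap share of 1.68 to 2.36%. These rows need a match in both replicates, which leaves out most overlapping sites by construction. No paired analysis was possible because the series has a single group.

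Limits: without read counts in the lists, depth is unknown and no detection limit can be given. The overlap share, matching and neighbour shares rest on the overlapping kind and on the threshold of 20, and the choice in a single replicate cannot check the overlap share. The planned search of the CTCF motif at all weak sites, with windows of 25 and 100 bp and thresholds of 0.1 and 5%, was not run, since no mm10 genome was used here.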
